A study of Mus musculus with 12 samples.

Results

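The nuclear genes for the subunits of respiratory complexes II, III and IV and of ATP synthase (complex V) were followed in the medial prefrontal cortex (mPFC) of mice. Members were protein-coding genes chosen by symbol: Sdha to Sdhd, Cyc1, Cycs, Ndufa4, and symbols that begin with Uqcr, Cox4i, Cox5 to Cox8 with a letter a, b or c, or Atp5. Of 51 such genes in the GENCODE M21 annotation, 47 were in the gene table of 17283 genes, and all 47 were tested. They were 4 genes of complex II, 10 of complex III with its electron acceptor cytochrome c, 16 of complex IV and 17 of complex V. Cox7b2, Cox8b, Cox8c and a further identifier named Atp5o were not analysed here. Atp5s also matched by symbol, although its product is not a structural subunit of the enzyme.

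Complex II (succinate dehydrogenase) feeds electrons from succinate into ubiquinone. Complex III passes them from ubiquinone to cytochrome c, and complex IV (cytochrome c oxidase) passes them to oxygen. Complexes III and IV pump protons, and ATP synthase uses the proton gradient to make ATP, on which neurons depend for ion pumping and synaptic transmission. Complex II is encoded wholly in the nucleus, whereas complexes III, IV and V each combine nuclear subunits with a few made from the mitochondrial genome. Several nuclear subunits of complexes IV and V exist as isoforms from separate genes.

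The 4 groups of 3 libraries were C57 mice, labelled wild type, given the DMSO solvent (C57 vehicle) or astragaloside IV (C57 ASIV), and BTBR mice, labelled as an inbred strain, given the same solvent (BTBR vehicle) or astragaloside IV (BTBR ASIV). Astragaloside IV is a saponin of Astragalus root, BTBR is a strain used as a model of autism, and injections were intraperitoneal for 7 days. The labels give neither dose, age nor sex, and call the 3 libraries of a group parallel samples. Nothing says that these came from separate animals, so p-values measure the spread between these libraries, which may be technical.

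Levels are FPKM, fragments scaled to exon length and library size, as deposited. Differences are on the scale of log2(FPKM + 1), which understates the change of low genes, with the standard error (SE) of a limma model. A gene was called at a Benjamini-Hochberg adjusted p under 0.05 over all 13586 genes tested. Depth was 16166328 to 18660039 fragments per library. The BTBR vehicle libraries stood apart in the share of fragments from the mitochondrial genome, which was 0.614 to 1.16% there, 5.01 to 5.42% in C57 vehicle, 3.496 to 5.38% in C57 ASIV and 3.73 to 4.14% in BTBR ASIV. Summed markers of neurons (5 of 5 in the table) ran from 913 to 1014 FPKM for C57 vehicle and from 700.4 to 849 FPKM for BTBR vehicle, with Snap25 lower in BTBR vehicle (log2 difference -1.08). Of the 5 markers, 1 was called lower and 4 were not called between the strains under vehicle, with a median log2 difference of -0.13. The sum ran from 853 to 1086 FPKM for C57 ASIV and from 643 to 813 FPKM for BTBR ASIV. The part of these differences in the results below was not tested. In bulk tissue, fewer cells of a type and less RNA per cell cannot be told apart.

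Between the strains under vehicle, the subunit genes moved in both directions within each complex. In BTBR vehicle 21 of 47 were higher than in C57 vehicle, 12 were lower and 14 did not pass the test. Called members made up 70.2%, beside 43.1% of all genes tested, and 52.5% of the 4757 tested genes with a mean level of at least 10 FPKM, a bound chosen after seeing the data that 42 of the 47 members reached. The median log2 difference of the members was -0.02 and their median absolute difference was 0.58, beside 0.01 and 0.29 over all genes tested. Groups did not overlap for 35 members, 74.5%, beside 53.3% of all genes. Differences ran from -3.02 for Atp5g2 to 1.79 for Atp5e, both genes of ATP synthase.

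ASIV in BTBR raised 9 members and lowered 19 against BTBR vehicle, and 19 did not pass. The share called was 59.6%, beside 29.1% of all genes tested and 38.5% of the genes of at least 10 FPKM. The median log2 difference was -0.24 and the median absolute difference 0.49, beside -0.01 and 0.23 over all genes. Groups did not overlap for 34 members, beside 39.1% of all genes. Differences ran from -1.30 for Atp5e to 2.54 for Atp5g2. Both comparisons use the same BTBR vehicle libraries, so their values are given side by side below and not related to each other.

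**Figure D1:**
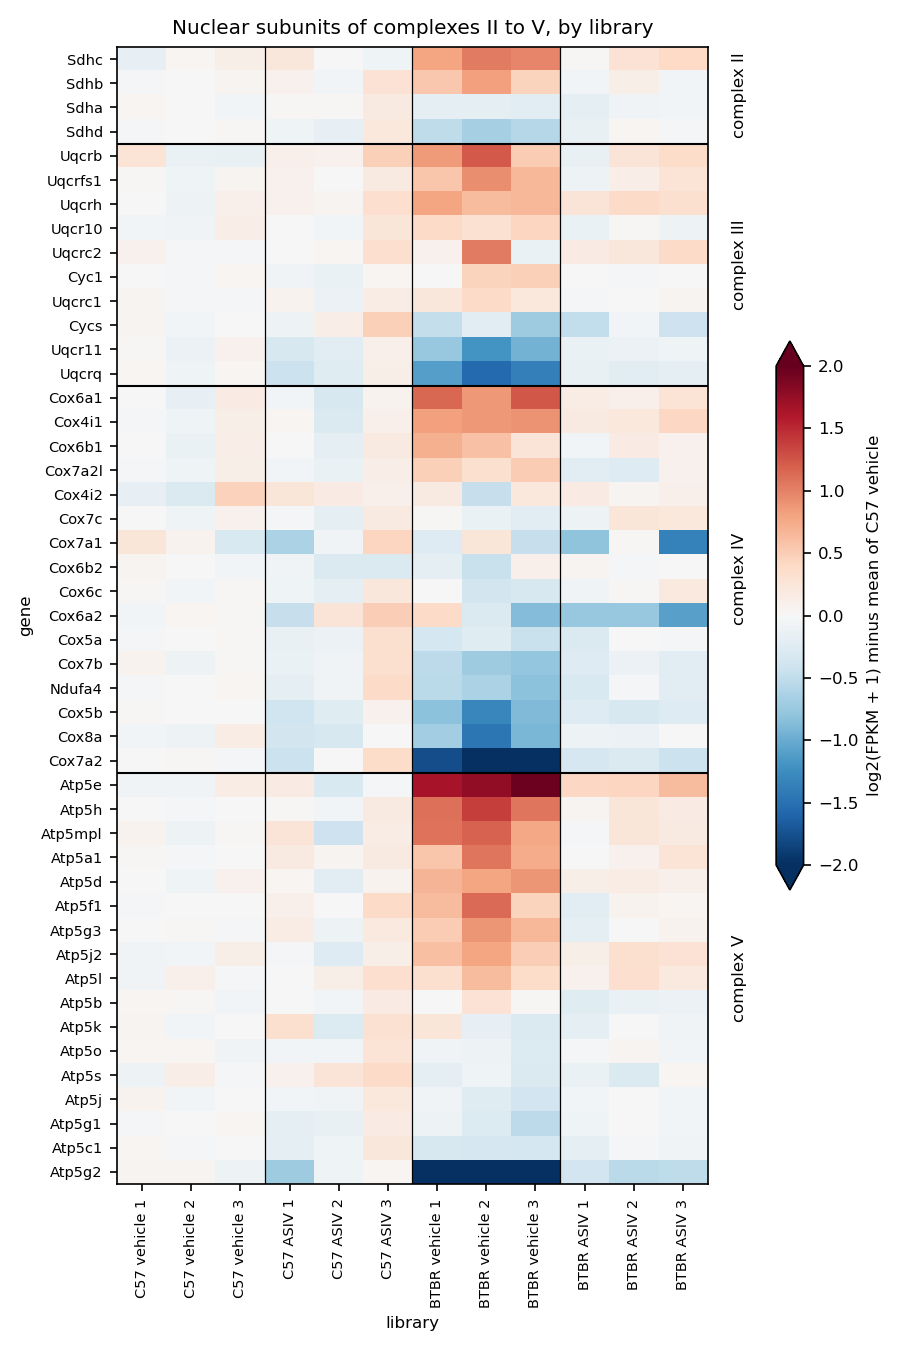
Each of the 47 genes (rows, by complex and by the difference between the strains under vehicle) in each of the 12 libraries (columns), as log2(FPKM + 1) minus the mean of C57 vehicle; colours end at -2 and 2. The BTBR vehicle columns hold strong colours of both kinds within every complex, whereas the BTBR ASIV columns are pale for most genes.

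In complex II, Sdhb and Sdhc were higher and Sdhd was lower in BTBR vehicle. Sdhc encodes one of the membrane anchors that hold the ubiquinone site. It stood at 22.9, 26.5 and 28.0 FPKM in C57 vehicle, 30.2, 25.4 and 24.2 in C57 ASIV, 45.3, 53.9 and 51.8 in BTBR vehicle, and 26.2, 31.7 and 34.0 in BTBR ASIV. All BTBR vehicle libraries lay above all others. The log2 difference was 0.94 (SE 0.12, adjusted p = 0.000104) between the strains under vehicle and -0.70 (SE 0.12, adjusted p = 0.00145) for ASIV in BTBR.

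Sdhd encodes the other membrane anchor. Its levels were 57.6, 58.6 and 59.4 FPKM in C57 vehicle, 54.9, 52.1 and 67.7 in C57 ASIV, 40.9, 36.8 and 39.2 in BTBR vehicle, and 52.9, 60.4 and 56.7 in BTBR ASIV. Here the BTBR vehicle libraries were the lowest (log2 difference -0.58, SE 0.10, adjusted p = 0.000838), and ASIV in BTBR gave 0.53 (SE 0.10, adjusted p = 0.00264). The ratio of Sdhc to Sdhd FPKM was thus 0.440 ± 0.0387 (SD, n = 3) in C57 vehicle, 0.465 ± 0.0984 in C57 ASIV, but 1.30 ± 0.181 in BTBR vehicle, then 0.540 ± 0.0534 in BTBR ASIV. Each such ratio, here and below, sets a gene higher in BTBR vehicle over one lower there. Its rise in BTBR vehicle follows from those differences and is no further result.

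Sdhb, the iron-sulphur subunit, was at 48.3, 49.8 and 51.6 FPKM in C57 vehicle, 53.2, 48.0 and 60.9 in C57 ASIV, 73.3, 89.2 and 68.2 in BTBR vehicle, and 48.0, 54.3 and 48.2 in BTBR ASIV. Its log2 difference was 0.60 between the strains under vehicle (SE 0.12, adjusted p = 0.00132) and -0.60 for ASIV in BTBR (SE 0.12, adjusted p = 0.00247). Sdha, the flavoprotein that oxidizes succinate, had group means of 94.9 FPKM (C57 vehicle) and 82.3 FPKM (BTBR vehicle). Those groups did not overlap, yet its log2 difference of -0.20 did not pass (adjusted p = 0.0633). It passed in 4 of 22 alternatives, with median ratio scaling (-0.22), quantile normalization (-0.28), rescaling without genes of the mitochondrial genome (-0.27) and without C57 ASIV 3 (-0.20).

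Of the 10 genes of complex III and cytochrome c, 6 were higher, 3 were lower and 1 did not pass between the strains under vehicle, whereas ASIV in BTBR raised 2 and lowered 5. Called members made up 90 and 70%, beside 43.1 and 29.1% of all genes tested. Among genes of at least 10 FPKM 52.5 and 38.5% were called. The catalytic and core genes Cyc1, Uqcrc1 and Uqcrfs1 were all higher in BTBR vehicle, though the calls of Cyc1 and Uqcrc1 depended on scaling and on single libraries. Uqcrfs1, the Rieske iron-sulphur protein that takes electrons from ubiquinol, stood at 94.4, 87.4 and 96.6 FPKM in C57 vehicle, 98.6, 93.7 and 105 in C57 ASIV, 137, 178 and 148 in BTBR vehicle, and 86.4, 102 and 112 in BTBR ASIV. BTBR vehicle lay above every other library, with a log2 difference of 0.72 (SE 0.12, adjusted p = 0.000525), and ASIV in BTBR gave -0.62 (SE 0.12, adjusted p = 0.00256).

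Cyc1, the cytochrome c1 subunit that hands electrons to cytochrome c, gave 0.31 and -0.32, and only the first passed (adjusted p = 0.0432 and 0.0518). Uqcrc1, a core protein, gave 0.28 and -0.27, both called (adjusted p = 0.0268 and 0.0382). The partner core protein Uqcrc2 had 1 high library in BTBR vehicle, 104 FPKM beside 53.6 and 45.8, and its differences of 0.33 and -0.07 did not pass and changed sign without that library (-0.021 and 0.28). The call of Cyc1 was lost without any 1 library other than C57 ASIV 3 or BTBR vehicle 1 (log2 differences 0.23 to 0.33), while its ASIV difference became a call in 4 of 22 alternatives, among them without BTBR vehicle 1 (-0.47). That of Uqcrc1 between the strains was lost without C57 vehicle 1, 2 or 3 or BTBR vehicle 2 (0.30, 0.26, 0.27 and 0.22). Its call for ASIV was lost without C57 vehicle 1, 2 or 3, BTBR vehicle 2 or BTBR ASIV 1, 2 or 3 (-0.22 to -0.30). Rescaled without genes of the mitochondrial genome, Cyc1 and Uqcrc1 also lost their calls between the strains (0.25 and 0.21). So they did with quantile normalization (0.22 and 0.20) and with only the groups compared (0.31 and 0.28), and Cyc1 with no filter (0.31). The ASIV call of Uqcrc1 was lost in these 3 settings too, and with TPM or a replicate block (-0.17 to -0.27).

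The small subunits that surround the core split by gene. Uqcrq and Uqcr11 were lower in BTBR vehicle, and Uqcrb, Uqcrh and Uqcr10 were higher. Uqcrq was at 65.5, 59.9 and 65.6 FPKM in C57 vehicle, 46.8, 53.4 and 69.2 in C57 ASIV, 29.0, 20.9 and 24.0 in BTBR vehicle, and 57.6, 54.1 and 56.0 in BTBR ASIV. No BTBR vehicle library reached the lowest of the others. Its log2 differences were -1.35 (SE 0.14, adjusted p = 2.37e-05) and 1.16 for ASIV in BTBR (SE 0.14, adjusted p = 0.000197).

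Uqcr11 showed the same split of groups, with 116, 105 and 121 FPKM in C57 vehicle, 90.4, 97.3 and 122 in C57 ASIV, 66.4, 49.1 and 58.7 in BTBR vehicle, and 103, 105 and 106 in BTBR ASIV. Its log2 differences were -0.96 (SE 0.13, adjusted p = 0.000115) and 0.85 (SE 0.13, adjusted p = 0.000615).

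Uqcrb, which lies near the ubiquinone site, went the other way. It stood at 42.0, 31.5 and 31.2 FPKM in C57 vehicle, 37.3, 36.9 and 48.4 in C57 ASIV, 63.5, 82.1 and 49.6 in BTBR vehicle, and 31.2, 41.7 and 44.7 in BTBR ASIV. The BTBR vehicle libraries varied widely but did not overlap with the others. The log2 differences were 0.86 (SE 0.19, adjusted p = 0.00363) and -0.70 (SE 0.19, adjusted p = 0.0169). The second lost its call without BTBR vehicle 2 (log2 difference -0.52, adjusted p = 0.0573) or without BTBR ASIV 1 (-0.55, adjusted p = 0.0672).

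Uqcrh, the hinge protein that helps cytochrome c1 bind cytochrome c, was at 72.0, 67.2 and 77.1 FPKM in C57 vehicle, 76.3, 75.2 and 91.2 in C57 ASIV, 124, 112 and 115 in BTBR vehicle, and 86.0, 93.7 and 89.8 in BTBR ASIV. Its BTBR vehicle libraries were the highest, with log2 differences of 0.69 (adjusted p = 0.000176) and -0.38 (adjusted p = 0.0123). Uqcr10 was at 124, 123 and 142 FPKM in C57 vehicle, 129, 124 and 154 in C57 ASIV, 169, 159 and 174 in BTBR vehicle, and 118, 131 and 120.2 in BTBR ASIV. Its log2 differences were 0.37 (adjusted p = 0.0126) and -0.44 (adjusted p = 0.00731), and the first lost its call without C57 vehicle 1 (0.34) or C57 vehicle 2 (0.33). The ratio of Uqcrb to Uqcrq FPKM was 0.548 ± 0.0850 (SD, n = 3) in C57 vehicle, 0.729 ± 0.0593 in C57 ASIV, but 2.73 ± 1.04 in BTBR vehicle, then 0.704 ± 0.141 in BTBR ASIV.

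Cycs, the mobile carrier cytochrome c between complexes III and IV, was at 21.6, 20.1 and 20.7 FPKM in C57 vehicle, 19.3, 22.8 and 29.4 in C57 ASIV, 14.6, 17.8 and 12.4 in BTBR vehicle, and 14.5, 19.9 and 15.3 in BTBR ASIV. It was lower in BTBR vehicle than in C57 vehicle (log2 difference -0.46, adjusted p = 0.0348). That call was lost without any 1 of C57 vehicle 1, 2 or 3, BTBR vehicle 1 or BTBR vehicle 3, with log2 differences of -0.44, -0.49, -0.47, -0.46 and -0.34. The BTBR ASIV libraries overlapped with those of BTBR vehicle (log2 difference 0.14, adjusted p = 0.539).

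**Figure D2:**
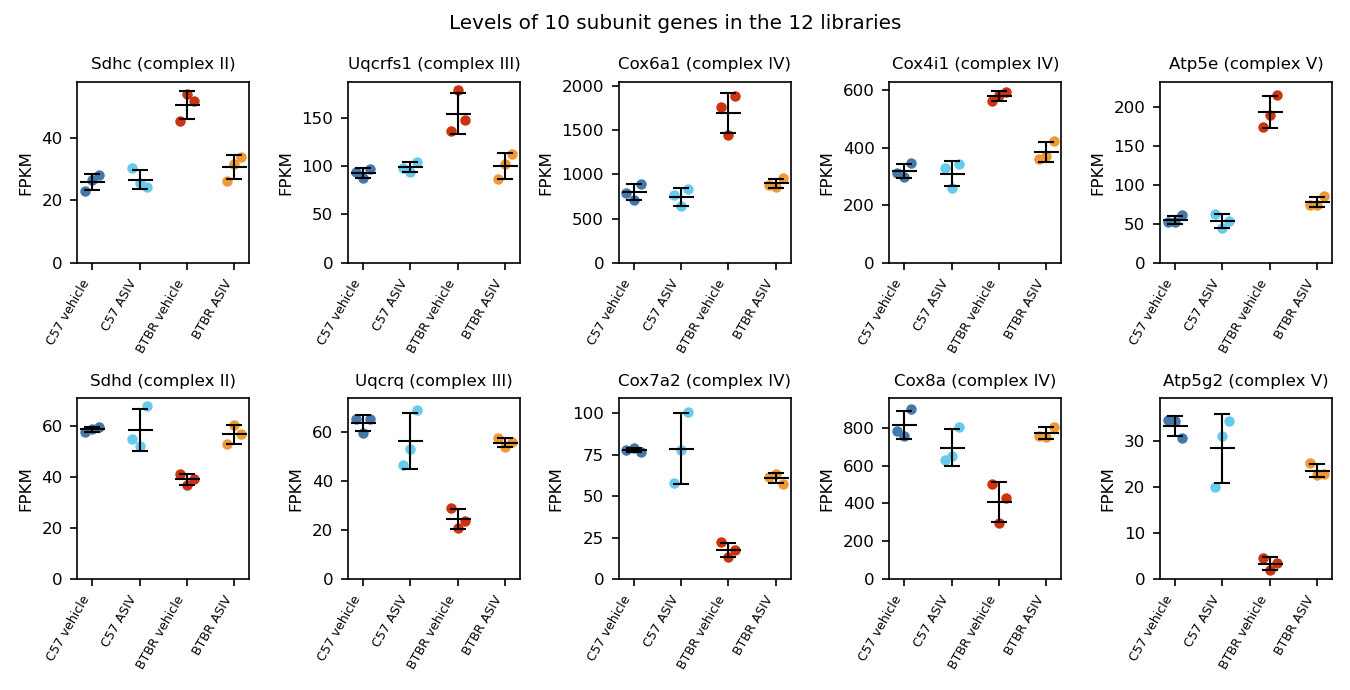
Levels (FPKM, axes from 0) of 10 subunit genes in the 12 libraries; points are libraries, and bars are the mean with the SD of 3. The upper row (Sdhc, Uqcrfs1, Cox6a1, Cox4i1, Atp5e) is highest in BTBR vehicle and the lower row (Sdhd, Uqcrq, Cox7a2, Cox8a, Atp5g2) is lowest there, for example Cox6a1 at 1697 ± 228 FPKM and Cox7a2 at 17.7 ± 4.37 FPKM.

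Of the 16 genes of complex IV, 4 were higher, 6 were lower and 6 did not pass between the strains under vehicle. ASIV in BTBR raised 5 and lowered 4. Called members made up 62.5 and 56.2%, beside 43.1 and 29.1% of all genes tested. Among genes of at least 10 FPKM 52.5 and 38.5% were called. The genes higher in BTBR vehicle were Cox4i1, Cox6a1, Cox6b1 and Cox7a2l, and the lower ones were Cox5a, Cox5b, Cox7a2, Cox7b, Cox8a and Ndufa4.

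Cox6a1, the form of subunit 6a found in most tissues, had the highest mean of the 47 genes in every group but C57 vehicle, where Cox8a was above it. It stood at 795, 707 and 888 FPKM in C57 vehicle, 764, 638 and 838 in C57 ASIV, 1759, 1445 and 1887 in BTBR vehicle, and 882, 854 and 959 in BTBR ASIV. BTBR vehicle lay above every other library, with log2 differences of 1.09 (SE 0.14, adjusted p = 8.34e-05) and, for ASIV in BTBR, -0.91 (SE 0.14, adjusted p = 0.000621). Its muscle counterpart Cox6a2 was at 6.07, 6.53 and 6.42 FPKM in C57 vehicle, 4.31, 7.73 and 9.29 in C57 ASIV, 8.61, 4.99 and 3.00 in BTBR vehicle, and 3.35, 3.33 and 2.46 in BTBR ASIV. Its values in BTBR vehicle spanned those of C57 vehicle, and neither log2 difference passed (-0.26 and -0.61, adjusted p = 0.500 and 0.138), although the second did without BTBR vehicle 3 (-0.91).

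Cox4i1, the common form of the largest nuclear subunit, stood at 311, 298 and 346 FPKM in C57 vehicle, 328, 259 and 341 in C57 ASIV, 560.5, 582 and 594 in BTBR vehicle, and 361, 369.9 and 423 in BTBR ASIV. The BTBR vehicle libraries were the highest and the BTBR ASIV libraries stayed above every C57 library. Its log2 differences were 0.86 (SE 0.12, adjusted p = 0.000136) and -0.59 (SE 0.12, adjusted p = 0.00294). Cox4i2, its counterpart known from lung, was at 1.77, 1.54 and 3.28 FPKM in C57 vehicle, 2.68, 2.48 and 2.34 in C57 ASIV, 2.52, 1.26 and 2.59 in BTBR vehicle, and 2.48, 2.24 and 2.33 in BTBR ASIV. The groups overlapped, and the log2 differences were -0.02 and 0.13 (adjusted p = 0.931 and 0.655).

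Cox8a, the form of subunit 8 found in most tissues, was lower in BTBR vehicle, where Cox6a1 was higher. It was at 782, 758 and 896 FPKM in C57 vehicle, 627, 652 and 806 in C57 ASIV, 502, 295 and 428 in BTBR vehicle, and 757, 750.4 and 805 in BTBR ASIV. All BTBR vehicle libraries lay below all others, with log2 differences of -1.02 (SE 0.17, adjusted p = 0.000525) and 0.95 (SE 0.17, adjusted p = 0.00159). The ratio of Cox6a1 to Cox8a FPKM was 0.980 ± 0.0432 (SD, n = 3) in C57 vehicle, 1.08 ± 0.125 in C57 ASIV, but 4.27 ± 0.707 in BTBR vehicle, then 1.16 ± 0.0264 in BTBR ASIV.

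Cox7a2, the form of subunit 7a found in most tissues, showed the widest difference of complex IV. Its levels were 77.9, 79.0 and 76.4 FPKM in C57 vehicle, 57.7, 77.6 and 100.5 in C57 ASIV, 22.1, 13.4 and 17.5 in BTBR vehicle, and 61.7, 63.5 and 57.6 in BTBR ASIV. The lowest value outside BTBR vehicle was thus above 57 FPKM, in 9 of 9 libraries. The log2 differences were -2.10 (SE 0.19, adjusted p = 8.65e-06) and 1.76 (SE 0.19, adjusted p = 9.61e-05).

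Cox7a2l is related to Cox7a2 in sequence, and its product is known for a role in joining complexes III and IV into supercomplexes. Whether that product works alike in both strains cannot be read from these levels. Cox7a2l was at 106, 102 and 117 FPKM in C57 vehicle, 104, 98.1 and 119 in C57 ASIV, 151, 135 and 155 in BTBR vehicle, and 93.0, 90.1 and 115 in BTBR ASIV. It was highest in BTBR vehicle, with log2 differences of 0.44 (adjusted p = 0.00908) and -0.57 (adjusted p = 0.0034). Cox7a1, the muscle form, was at 2.30, 1.93 and 1.26 FPKM in C57 vehicle, 0.811, 1.67 and 2.78 in C57 ASIV, 1.34, 2.30 and 1.04 in BTBR vehicle, and 0.609, 1.86 and 0.101 in BTBR ASIV. Its groups overlapped and neither difference passed (-0.16 and -0.55).

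Cox5b, the zinc-binding subunit on the matrix side, was at 91.2, 89.4 and 89.1 FPKM in C57 vehicle, 68.1, 76.0 and 95.3 in C57 ASIV, 50.7, 35.7 and 48.5 in BTBR vehicle, and 75.3, 72.1 and 74.6 in BTBR ASIV. It was lowest in BTBR vehicle, with log2 differences of -0.999 (SE 0.14, adjusted p = 0.000149) and 0.72 (SE 0.14, adjusted p = 0.0024). Cox6b1, which faces the intermembrane space, was at 172, 158 and 189.7 FPKM in C57 vehicle, 173, 150.2 and 196 in C57 ASIV, 283, 259 and 207 in BTBR vehicle, and 167, 194 and 183 in BTBR ASIV. It was highest in BTBR vehicle, with log2 differences of 0.52 (adjusted p = 0.00813) and -0.45 (adjusted p = 0.0243). The second lost its call without BTBR vehicle 1 (-0.36), BTBR vehicle 2 (-0.42), BTBR ASIV 1 (-0.39) or BTBR ASIV 3 (-0.46).

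A set of 6 complex IV genes was read apart from the isoform families (Cox5a, Cox5b, Cox6c, Cox7b, Cox7c and Ndufa4). The grouping was uneven, since Cox7b2, Cox8b and Cox8c were not analysed, yet Cox7b was kept and Cox8a left out. Cox8a, given above, was also lower in BTBR vehicle and raised by ASIV in BTBR. Of the 6, 4 were lower in BTBR vehicle and none was higher, beside 20.8% of all genes called lower and 22.3% higher. Their median log2 difference was -0.51. ASIV in BTBR raised 3 of these 6 and lowered none, with a median of 0.38, beside 13.7% of all genes called higher and 15.4% lower. Under quantile normalization it also raised Cox5a (0.32), Cox6c (0.35) and Cox7c (0.34). Cox7b and Ndufa4, the latter a subunit once assigned to complex I, each gave -0.67 between the strains under vehicle, and 0.47 and 0.49 for ASIV in BTBR, all called. The ASIV call of Ndufa4 was lost without BTBR vehicle 3 or BTBR ASIV 2 (0.41 each). Cox5a gave -0.35 (adjusted p = 0.0407) and 0.24 (not called), and the first call was lost without C57 vehicle 1, 2 or 3, BTBR vehicle 1 or BTBR vehicle 3 (-0.36, -0.35, -0.34, -0.34 and -0.30). Cox6c and Cox7c did not pass in either comparison of the main fit (-0.23 and -0.11, then 0.28 and 0.23), although without BTBR vehicle 1 Cox6c was called in both (-0.34 and 0.40). Cox6b2, known from testis, stayed between 0.528 and 1.23 FPKM in all 12 libraries.

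**Figure D3:**
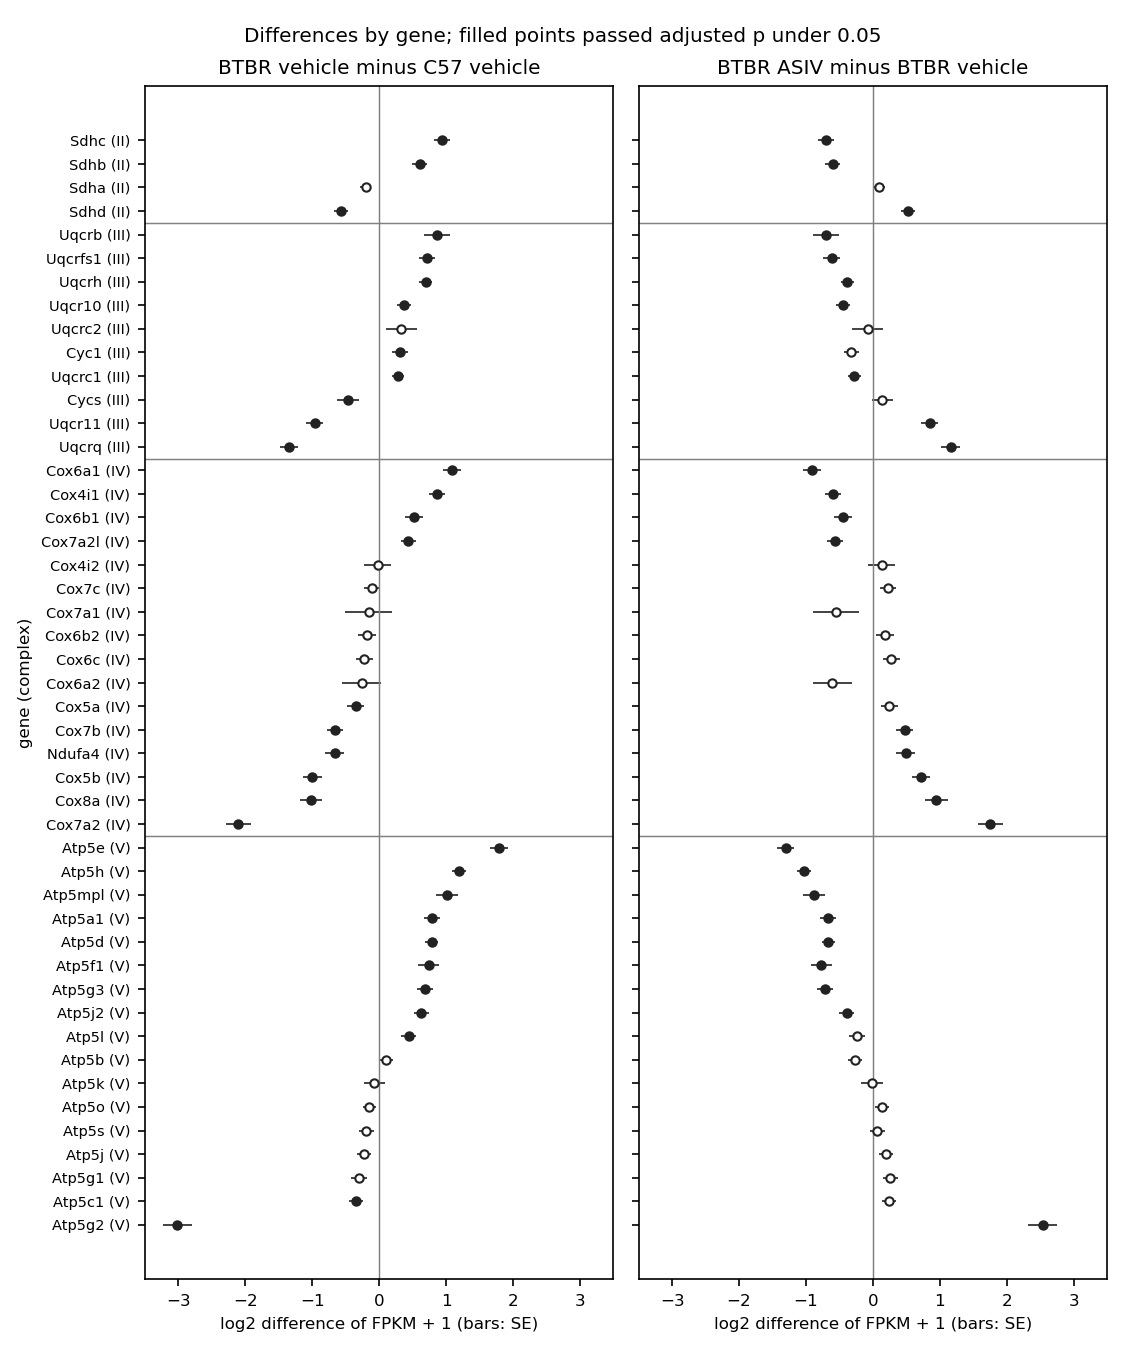
Log2 differences of FPKM + 1 with their SE for the 47 genes, by complex, for BTBR vehicle against C57 vehicle (left) and BTBR ASIV against BTBR vehicle (right); filled points passed an adjusted p under 0.05. Both panels share the BTBR vehicle libraries, and differences reach -3.02 on the left and 2.54 on the right, both for Atp5g2.

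Of the 17 genes matched for complex V, 9 were higher, 2 were lower and 6 did not pass between the strains under vehicle. ASIV in BTBR raised 1 and lowered 8. Called members made up 64.7 and 52.9%, beside 43.1 and 29.1% of all genes tested. Among genes of at least 10 FPKM 52.5 and 38.5% were called. The enzyme has a catalytic head (F1) of subunits alpha to epsilon, a central and a peripheral stalk, and a membrane part with a ring of c subunits turned by the passing protons.

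In the head, Atp5a1 (alpha), Atp5d (delta) and Atp5e (epsilon) were higher in BTBR vehicle and Atp5c1 (gamma) was lower. Atp5e lies on chromosome 2 (chr2:174461072-174464105, mm10). It was at 52.2, 52.1 and 61.0 FPKM in C57 vehicle, 61.9, 44.3 and 53.3 in C57 ASIV, 175, 190.2 and 216 in BTBR vehicle, and 73.7, 74.4 and 85.4 in BTBR ASIV. BTBR vehicle stood far above the rest and BTBR ASIV above every C57 library. The log2 differences were 1.79 (SE 0.13, adjusted p = 2.24e-06) and -1.30 (SE 0.13, adjusted p = 6.61e-05).

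Atp5c1, the gamma subunit that forms the rotating shaft, was at 74.8, 70.8 and 73.2 FPKM in C57 vehicle, 63.6, 68.6 and 85.2 in C57 ASIV, 58.0, 57.3 and 56.7 in BTBR vehicle, and 63.7, 71.2 and 69.3 in BTBR ASIV. It was lower in BTBR vehicle (log2 difference -0.34, adjusted p = 0.0189), a call lost without C57 vehicle 1 (-0.32, adjusted p = 0.0641) or C57 vehicle 3 (-0.34, adjusted p = 0.0516). Its difference of 0.24 for ASIV in BTBR did not pass (adjusted p = 0.0984), but did in 3 of 22 alternatives, with TPM (0.25), with quantile normalization (0.31) and without C57 ASIV 3 (0.24). The ratio of Atp5e to Atp5c1 FPKM was 0.755 ± 0.0698 (SD, n = 3) in C57 vehicle, 0.748 ± 0.195 in C57 ASIV, but 3.38 ± 0.398 in BTBR vehicle, then 1.14 ± 0.0944 in BTBR ASIV.

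Atp5a1 rose from 263 ± 3.80 FPKM (SD, n = 3) in C57 vehicle to 460.1 ± 83.0 in BTBR vehicle, and was 286 ± 28.4 in BTBR ASIV. Both differences were called (0.79 and -0.67). Atp5b, the catalytic beta subunit, was at 272 ± 9.92 FPKM in C57 vehicle, 293 ± 34.6 in BTBR vehicle and 243 ± 12.02 in BTBR ASIV, and neither difference passed (0.10 and -0.27, adjusted p = 0.451 and 0.0717). The mean level of Atp5a1 was thus close to that of Atp5b in C57 vehicle and above it in BTBR vehicle, on the same per-length scale. Atp5d gave 0.78 and -0.66, both called.

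In the stalks, Atp5h (subunit d of the peripheral stalk) was at 83.7, 81.8 and 82.9 FPKM in C57 vehicle, 84.5, 79.7 and 94.0 in C57 ASIV, 179.7, 217 and 176 in BTBR vehicle, and 85.7, 98.2 and 93.2 in BTBR ASIV. All BTBR vehicle libraries lay above all others, with log2 differences of 1.19 (SE 0.10, adjusted p = 7.07e-06) and -1.03 (SE 0.10, adjusted p = 6.88e-05). Atp5f1 (subunit b) gave 0.74 and -0.77, both called. Atp5o, the protein that ties the stalk to the head, and Atp5j (coupling factor 6) gave -0.14 and -0.23 between the strains under vehicle, and did not pass, although Atp5j did in 3 of 22 alternatives, among them without BTBR vehicle 1 (-0.31).

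In the membrane part, Atp5mpl, a small membrane subunit, was at 43.3, 38.4 and 42.0 FPKM in C57 vehicle, 49.2, 30.7 and 45.8 in C57 ASIV, 88.0, 94.5 and 71.2 in BTBR vehicle, and 40.6, 49.0 and 46.7 in BTBR ASIV. It was highest in BTBR vehicle, with log2 differences of 1.01 (SE 0.16, adjusted p = 0.000393) and -0.88 (SE 0.16, adjusted p = 0.00189). Of the dimer-forming subunits, Atp5j2 (f) gave 0.63 and -0.39, both called, Atp5l (g) gave 0.44 (called) and -0.24, and Atp5k (e) gave -0.07 and -0.01, neither called. The ASIV call of Atp5j2 was lost without BTBR vehicle 2 (-0.31) or BTBR ASIV 1 (-0.33). Atp5s gave -0.19 and 0.07, neither called.

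Subunit c, whose ring carries the protons, is encoded by Atp5g1, Atp5g2 and Atp5g3. Their precursors carry different import sequences that are cleaved off, and the mature protein is the same. The genes differ in their coding letters, at the last letter of a codon for 32 of 34, 41 of 46 and 44 of 49 differences in the pairs below, which decides how far sequenced fragments can tell them apart. The first 90 bases of the last 228 coding bases, from the GENCODE M21 transcripts (GRCm38, the mm10 assembly), are shown 5′ to 3′ on the coding strand, with capitals at the 22 positions where the 3 genes differ.
Atp5g1: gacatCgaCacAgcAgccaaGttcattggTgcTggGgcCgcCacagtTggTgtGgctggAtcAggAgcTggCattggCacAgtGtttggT
Atp5g2: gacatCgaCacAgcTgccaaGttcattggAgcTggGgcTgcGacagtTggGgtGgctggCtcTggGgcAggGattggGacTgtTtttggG
Atp5g3: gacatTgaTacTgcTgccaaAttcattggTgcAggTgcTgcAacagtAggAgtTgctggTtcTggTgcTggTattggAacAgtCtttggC
Over the 228 bases Atp5g1 and Atp5g2 were 85.1% identical, Atp5g1 and Atp5g3 79.8%, and Atp5g2 and Atp5g3 78.5%, and the longest identical run of any pair was 21 bases.

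Atp5g2 lies on chromosome 15 (chr15:102662864-102672352, mm10). It stood at 34.6, 34.4 and 30.8 FPKM in C57 vehicle, 19.98, 31.1 and 34.3 in C57 ASIV, 4.72, 1.99 and 3.43 in BTBR vehicle, and 25.2, 22.6 and 23.0 in BTBR ASIV. The BTBR vehicle libraries lay far below all others. Its log2 difference between the strains under vehicle was -3.02 (SE 0.22, adjusted p = 2.89e-06), and ASIV in BTBR gave 2.54 (SE 0.22, adjusted p = 4.22e-05). On the FPKM means, C57 vehicle was 9.84 times BTBR vehicle, and BTBR ASIV was 6.98 times BTBR vehicle.

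Atp5g3 (chr2:73908447-73911326) was the most abundant of the 3 genes and went the other way. It was at 86.2, 87.1 and 85.0 FPKM in C57 vehicle, 95.8, 80.6 and 98.9 in C57 ASIV, 123, 159 and 137 in BTBR vehicle, and 75.6, 86.8 and 90.4 in BTBR ASIV. It was highest in BTBR vehicle, with log2 differences of 0.68 (SE 0.12, adjusted p = 0.0006) and -0.72 (SE 0.12, adjusted p = 0.000897). Atp5g1 (chr11:96068852-96075670) was at 18.5, 18.9 and 19.7 FPKM in C57 vehicle, 16.7, 17.2 and 21.5 in C57 ASIV, 17.6, 15.5 and 12.9 in BTBR vehicle, and 17.9, 19.2 and 18.2 in BTBR ASIV. Its log2 differences of -0.31 and 0.26 did not pass (adjusted p = 0.0513 and 0.11), although the first did in 7 of 22 alternatives, among them without BTBR vehicle 1 (-0.40) or C57 ASIV 3 (-0.31), and the second without BTBR vehicle 1 (0.36).

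As a share of the summed FPKM of the 3 genes, Atp5g2 held 24.0 ± 1.13% (SD, n = 3) in C57 vehicle, 20.5 ± 4.77% in C57 ASIV, but 2.21 ± 1.06% in BTBR vehicle, then 18.8 ± 2.16% in BTBR ASIV. Atp5g3 held 62.2 ± 0.456%, 66.3 ± 5.30%, 88.0 ± 2.98% and 66.6 ± 2.62% in the same order. The sum itself moved less, at 138.4 ± 2.61, 138.7 ± 14.1, 158.3 ± 16.4 and 126.3 ± 6.72 FPKM. In the 7a family Cox7a2 held 41.4 ± 2.02% in C57 vehicle, 41.5 ± 5.24% in C57 ASIV, but 10.5 ± 1.94% in BTBR vehicle, then 38.0 ± 4.09% in BTBR ASIV, and Cox7a2l held most of the rest. Such shares depend on the exon length behind each FPKM. In the Cox4, Cox6a and Cox6b families 1 gene held at least 98.8% in every library.

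**Figure D4:**
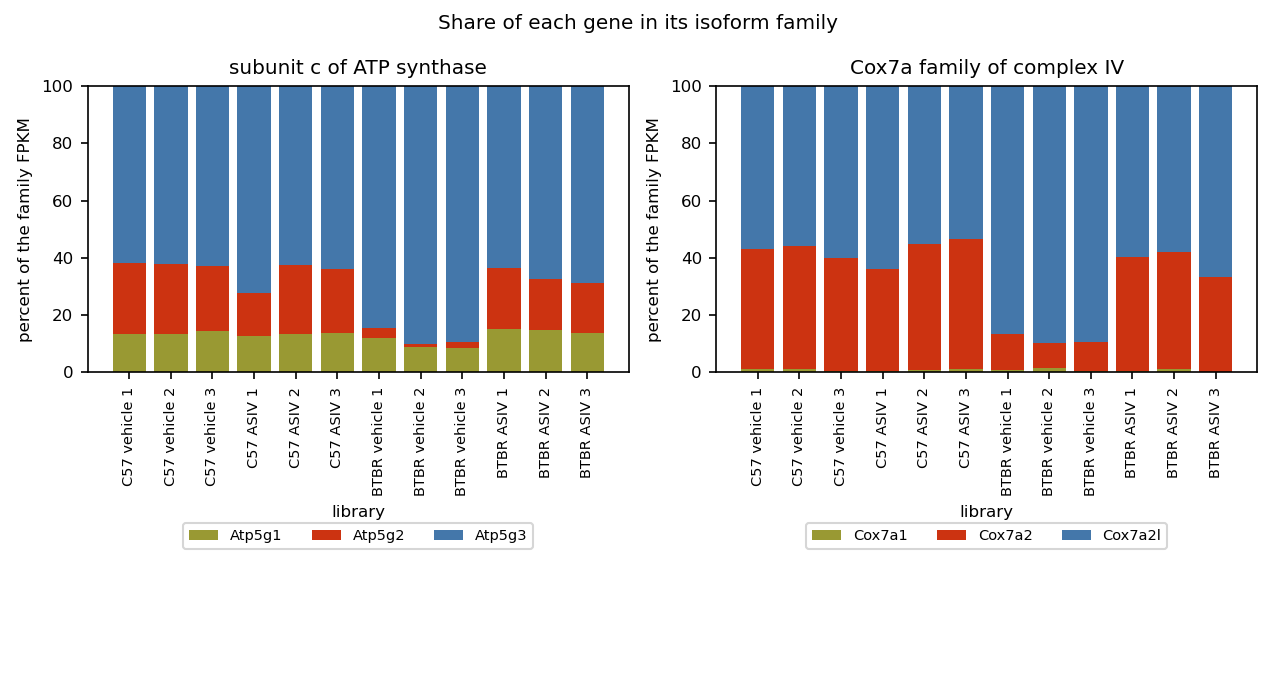
Share of each gene (percent of the summed FPKM of its family) in the 12 libraries, for subunit c of ATP synthase (left) and for the Cox7a family (right). The share of Atp5g2 is 1.13 to 3.25% in the BTBR vehicle libraries and at least 15.1% in the other 9, and that of Cox7a2 is 8.87 to 12.7% against at least 33.3%.

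The levels were also summed over all members of a complex. Complex II summed to 229 ± 2.44 FPKM (SD, n = 3) in C57 vehicle, 239 ± 19.4 in C57 ASIV, but 248 ± 12.2 in BTBR vehicle, then 225 ± 13.7 in BTBR ASIV. Complex III with Cycs summed to 722 ± 34.0, 738 ± 84.1, 848 ± 60.2 and 734 ± 32.3 FPKM in the same order. Complex IV, of which Cox6a1 and Cox8a made up the largest part, summed to 2743 ± 220 FPKM, 2564 ± 340, 3424 ± 331 and 2821 ± 140. Complex V summed to 1247 ± 14.1, 1295 ± 114, 1885 ± 184 and 1273 ± 70.6 FPKM. For complexes IV and V the 3 BTBR vehicle libraries lay above all others. No test was run on these sums, and no sums of other genes were set beside them.

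The spread among genes was also largest in BTBR vehicle. The same measure was not taken over all genes tested, so it is not shown to be particular to the subunits. For each library, the SD over the 47 genes of the log2 value relative to the C57 vehicle mean was 0.0776, 0.0760 and 0.104 in C57 vehicle, which is small because these libraries form the reference. It was 0.223, 0.150 and 0.155 in C57 ASIV, 0.761, 1.02 and 0.873 in BTBR vehicle, and 0.224, 0.228 and 0.346 in BTBR ASIV. The 3 BTBR vehicle libraries, with mitochondrial genome shares of 1.16, 0.614 and 0.830% in the same order, held the largest spreads, and the part of that share in the spread was not tested. Expressed by complex, the lowest spread of a BTBR vehicle library was 0.608 for complex II, 0.654 for III, 0.721 for IV and 0.9002 for V.

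**Figure D5:**
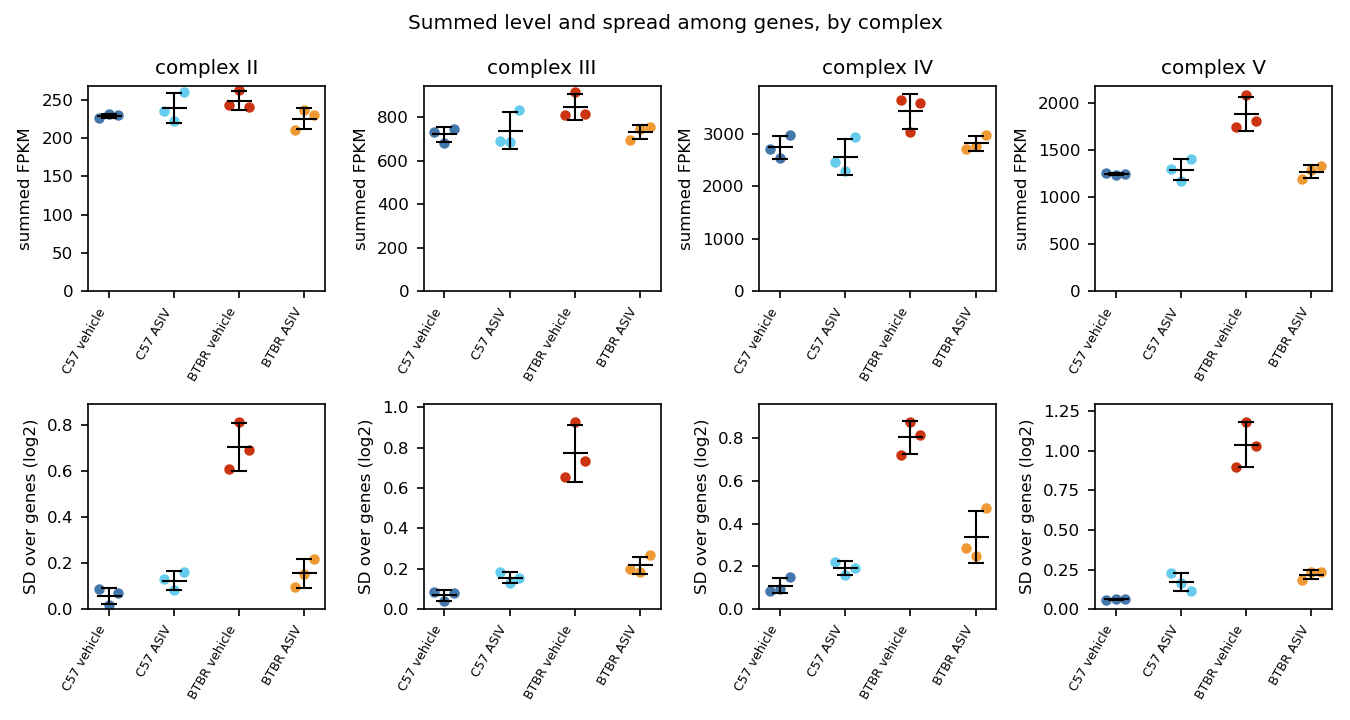
For each complex, the summed FPKM of its genes (upper row) and the SD over its genes of log2(FPKM + 1) relative to the C57 vehicle mean (lower row), by group; points are libraries, bars the mean with the SD of 3, and axes start at 0. The spread in BTBR vehicle is at least 0.608 in every complex, and the C57 vehicle libraries are near 0 because they form the reference.

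Between the strains under ASIV, 1 member was called higher (2.13%, beside 1.31% of all genes tested called higher) and 0 were called lower (beside 1.22%; 2.53% in both directions) in the limma fit. Without adjustment 7 of the 47 had a p under 0.05, and a voom fit on fragment counts recovered from the table also called 1 higher and 0 lower. The called gene was Atp5e, at 53.2 ± 8.79 FPKM (SD, n = 3) in C57 ASIV and 77.8 ± 6.59 in BTBR ASIV (log2 difference 0.55, SE 0.13, adjusted p = 0.0428). It kept that call in 12 of 22 alternative analyses, with adjusted p up to 0.188. Leaving out a single library ended the call for C57 vehicle 1, 2 or 3 (log2 difference 0.55 each), C57 ASIV 2 (0.43), C57 ASIV 3 (0.56), BTBR ASIV 1 (0.59), BTBR ASIV 2 (0.58) and BTBR ASIV 3 (0.48).

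The next genes by p did not pass. Cox4i1 gave 0.32 (adjusted p = 0.166) and Atp5j2 0.30 (adjusted p = 0.188) on the higher side. Cox6a2 gave -0.96 (adjusted p = 0.113), Atp5s -0.37 (adjusted p = 0.103) and Cycs -0.49 (adjusted p = 0.13) on the lower side. Cox6a2 became a call without C57 ASIV 1 (-1.23, adjusted p = 0.0446), BTBR vehicle 1 (-0.96, adjusted p = 0.0498) or BTBR vehicle 3 (-0.96, adjusted p = 0.0452). The median absolute difference of the members was 0.13, beside 0.14 over all genes, and 9 members had groups that did not overlap, beside 26.2% of all genes.

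In C57 mice, ASIV moved no member past the threshold, as it moved none of the 13586 genes (0.0% called). The limma fit gave 0 higher and 0 lower, and so did the voom fit. At an unadjusted p under 0.05 there were 1 member and 417 genes in all. The leading members were Atp5s (0.24), Uqcrh (0.16) and Atp5l (0.16) on the higher side, and Cox6b2 (-0.22), Cox8a (-0.23) and Uqcrq (-0.19) on the lower side, each with an adjusted p of 1.00. The groups did not overlap for 2 members, beside 13.1% of all genes.

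The difference between the ASIV effects in the strains was tested as an interaction. It was called for 23 members, 48.9%, beside 14.3% of all genes tested. The effect was more positive in BTBR than in C57 for 7, namely Sdhd, Uqcr11, Uqcrq, Cox5b, Cox7a2, Cox8a and Atp5g2, and more negative for 16, beside 6.91 and 7.36% of all genes. The smallest p on the positive side belonged to Atp5g2 (2.79, SE 0.31, adjusted p = 0.000691), Uqcrq (1.35, SE 0.20, adjusted p = 0.00197) and Cox7a2 (1.78, SE 0.26, adjusted p = 0.00208). On the negative side they were Atp5h (-1.09, SE 0.15, adjusted p = 0.00139), Atp5e (-1.24, SE 0.18, adjusted p = 0.00197) and Atp5g3 (-0.80, SE 0.16, adjusted p = 0.00821). These 6 kept their calls with any 1 library left out. The interaction of Sdhd (0.54) lost its call without C57 vehicle 1, 2 or 3, C57 ASIV 1 or 2, or BTBR ASIV 2 or 3 (0.47 to 0.55).

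Exon length enters every FPKM value, and near-identical copies can share fragments with a member. The exon length had a median of 1756 bases among the 21 members higher in BTBR vehicle, 1484 among the 12 lower and 2006 among the 14 not called, with ranges that overlapped. Among the 11 members under 1000 bases, 4 were higher and 3 lower, beside 45.9% of all genes of that length called in either direction. Among the 18 members of 1000 to under 2000 bases, 8 were higher and 7 lower, beside 49.7% of all such genes.

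An annotated copy elsewhere in the genome, of at least 95% identity over at least 100 bases and 25% of the transcript, was found for 14 of the 47. Of these 14, 5 were higher and 5 lower between the strains under vehicle, beside 22.3 and 20.8% of all genes tested. Of the 33 without such a copy 16 were higher and 7 lower. Atp5e, Cox6a1, Cox7a2, Cox8a, Uqcrq, Atp5g3 and Sdhc had none. How the authors counted fragments that match several places is not given in the sources used here, so the levels of members with copies are uncertain.

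The copies with the highest levels were these. Gm10250 matched Atp5h at 99.0% and was at 32.1 ± 3.52 FPKM (SD, n = 3) in C57 vehicle, with log2 differences of 1.68 between the strains under vehicle and -1.20 for ASIV in BTBR. Gm10221 matched Atp5l at 100% and was at 75.3 ± 10.6 FPKM in C57 vehicle, above Atp5l itself at 9.14 ± 0.646 FPKM, with differences of 1.10 and -0.73. Gm11273 matched Cox5b at 99.2% and gave -2.03 and 1.40, and Gm12338 matched Cox7c at 100% and gave -0.94 and 1.00. Atp5g2 had 2 copies, neither among the genes analysed here. Gm10175 matched it at 100% over 88.2% of its transcript and Gm10231 at 100% over 60.3%, so its level is among the uncertain ones. Besides, 10 members overlap a gene of the table on the opposite strand, among them Cox4i1 (Emc8), Atp5a1 (Haus1), Atp5d (Cbarp) and Atp5j (Gabpa), and whether counting used the strand is not given in the sources used here.

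Promoters were read for 35 of the 47 members from RefSeq (GRCm38.p6), as the 250 bases before the annotated start. NRF1 and the ETS factor GABP are known regulators of many respiratory genes. The NRF1 motif was searched as GCGCA, any base, then GCGC, and the ETS motif as CCGGAAG, both on either strand, and no match of one overlapped a match of the other in a member. The 35 members had 38 promoters, and a member counted if any of its promoters matched, whereas all promoters were counted singly. NRF1 letters stood before 7 of 35 members (20%) and in 3.74% of all 32851 promoters of that length, and ETS letters before 9 of 35 (25.7%) and in 6.91%. By direction under vehicle, NRF1 letters stood in 2 of 15 higher, 3 of 11 lower and 2 of 9 members not called. ETS letters stood in 6 of 15 higher, 2 of 11 lower and 1 of 9 not called. A match is only a run of letters, and no match says only that the letters are not in this window.

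The 150 bases before the start are shown for the genes with the largest differences in each direction, 5′ to 3′ on the minus strand, with motif letters in capitals. Atp5g2 is at chr15:102671048-102671197, Cox7a2 at chr9:79759854-79760003, Atp5e at chr2:174464102-174464251 and Atp5h at chr11:115419920-115420069.
Atp5g2: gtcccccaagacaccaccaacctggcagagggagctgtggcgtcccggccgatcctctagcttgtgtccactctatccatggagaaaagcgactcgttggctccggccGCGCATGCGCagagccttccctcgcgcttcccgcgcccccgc
Cox7a2: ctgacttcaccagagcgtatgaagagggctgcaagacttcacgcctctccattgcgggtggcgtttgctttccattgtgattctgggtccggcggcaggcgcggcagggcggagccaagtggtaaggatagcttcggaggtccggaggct
Atp5e: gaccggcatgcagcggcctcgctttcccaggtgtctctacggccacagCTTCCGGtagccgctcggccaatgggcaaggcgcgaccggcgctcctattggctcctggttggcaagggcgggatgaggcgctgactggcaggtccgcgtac
Atp5h: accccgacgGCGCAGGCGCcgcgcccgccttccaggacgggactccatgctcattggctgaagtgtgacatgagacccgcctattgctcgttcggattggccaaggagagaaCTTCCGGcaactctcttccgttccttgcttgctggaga
NRF1 letters thus stood before Atp5g2, the member with the lowest log2 difference, and before Atp5h, which was higher, while these letters did not stand in the window of Cox7a2.

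The rest of the pathway was read from lists chosen with results of these data known. The 6 subunits of complexes III to V made from the mitochondrial genome were all lower in BTBR vehicle (median log2 difference -3.82) and all raised by ASIV in BTBR (median 3.19). Of all genes tested, 20.8% were called lower in BTBR vehicle and 13.7% higher for ASIV in BTBR. mt-Cytb, cytochrome b of complex III, gave -4.49 and 3.89, and mt-Co1, the catalytic subunit of complex IV, -3.25 and 2.65. Of 36 nuclear genes of complex I, 14 were higher and 17 lower between the strains under vehicle, and ASIV in BTBR raised 14 and lowered 12. The shares called were 86.1 and 72.2%, beside 43.1 and 29.1% of all genes tested.

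Of 33 tested assembly factors of complexes II to V, 14 were higher and 5 lower between the strains under vehicle, and ASIV in BTBR raised 3 and lowered 13. The shares called were 57.6 and 48.5%, beside 43.1 and 29.1% of all genes tested. Uqcc2 and Uqcc3, which assist the making of cytochrome b, went opposite ways, with -1.69 and 1.09 under vehicle and 1.44 and -0.63 for ASIV in BTBR. Cox11, which delivers copper to complex IV, gave 1.02 and -0.99. Atpif1, the inhibitor protein of ATP synthase, was lower in BTBR vehicle (-0.87) and raised by ASIV in BTBR (0.78). Of 8 regulators, Tfam (0.61), Esrra (0.47) and Gabpa (0.38) were higher and Ppargc1a (-0.39, adjusted p = 0.0496) was lower between the strains under vehicle. ASIV in BTBR lowered Tfam (-0.58) and Esrra (-0.50) and raised none of the 8. The shares of the regulators called, 50% and 25%, were near the 43.1 and 29.1% of all genes tested, so these counts are no result about regulators.

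Markers of other cells moved as well, and their part in the subunit results was not tested. The summed markers of parvalbumin interneurons (4 of 4 in the table), cells rich in mitochondria, were 71.3 to 78.6 FPKM in C57 vehicle, 109.8 to 173 in BTBR vehicle and 53.5 to 65.5 in BTBR ASIV. Pvalb itself gave 1.47 and -1.68 in the main comparisons, both called, and Kcnc1 gave -0.28 under vehicle. This sum does not stand for its whole list either. Under vehicle 1 of the 4 was called higher, 1 lower and 2 not called, with a median log2 difference of -0.02. For ASIV in BTBR 2 were called lower and 2 not called. The share called was 50% in both, beside 43.1 and 29.1% of all genes tested. Of the muscle markers (3 of 5 in the table, 1 of them tested), Acta1 fell from 7.26 ± 0.397 FPKM under vehicle in C57 to 2.46 ± 0.774 FPKM in BTBR (log2 difference -1.28, called), while the muscle isoforms Cox6a2 and Cox7a1 did not pass. Endothelial markers (4 of 4) summed to 69.0 to 79.8 FPKM in C57 vehicle, 92.5 to 121.5 in BTBR vehicle and 55.1 to 77.1 in BTBR ASIV. The endothelial sum does not stand for the whole list. Of the 4, 1 was called higher, 1 lower and 2 not called in each main comparison. Their log2 differences ran from -0.81 to 0.66 under vehicle and from -0.81 to 0.53 for ASIV in BTBR. The share called was 50% in both, beside 43.1 and 29.1% of all genes tested. Striatal markers (4 of 4) varied widely within every group. They summed to 40.2 to 115 FPKM in C57 vehicle and 31.9 to 141 in C57 ASIV. The sums were 49.4 to 109 FPKM in BTBR vehicle and 28.9 to 233 in BTBR ASIV. None of the 4 was called in any comparison. Summed markers of astrocytes (5 of 5) ran from 161 to 199.9 FPKM in C57 vehicle and from 153 to 188 FPKM in BTBR vehicle, those of microglia (5 of 5) from 124 to 144 and from 115 to 147 FPKM, and those of oligodendrocytes (5 of 5) from 557 to 655 and from 463 to 1076 FPKM. Between the strains under vehicle 1 astrocyte marker was called higher, 1 lower and 3 not called (log2 differences -0.81 to 0.70). For oligodendrocytes 1 was called higher and 4 were not called (-0.05 to 1.12). The shares called were 40 and 20%, beside 43.1% of all genes tested. Within the microglial list, Cx3cr1 (-0.91 and 0.47) and P2ry12 (-1.88 and 1.65) were lower in BTBR vehicle and raised by ASIV in BTBR. The other 3 did not pass, and their log2 differences under vehicle were positive, up to 0.34. The median of the 5 was 0.08 under vehicle. The share called was 40% in both comparisons, beside 43.1 and 29.1% of all genes tested, so the list did not move as a whole. Blood markers (3 of 3, of which 2 were tested) summed to 76.5 to 149 FPKM in C57 vehicle and to 31.8 to 107 FPKM in BTBR vehicle, with Hba-a1 called lower (-1.30) and Hbb-bs not called (-0.71).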

How the data were processed

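RNA-seq of mPFC total RNA was analysed in 12 libraries, 4 groups of 3. The authors deposited FPKM per gene in 1 table, with 17283 genes and no value at 0; HISAT2 2.0.5 and mm10 come from the submitters' processing notes. For the counter, annotation, strand of counting and filters the sources used here give nothing. Of the gene identifiers, 17273 matched GENCODE M21 and 10 did not. With its exon lengths, 97.6 to 98.0% of values under 50 fragments came out whole within 0.02, which gave the depths.

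Genes that reached an FPKM of 1 in 3 libraries were fitted as log2(FPKM + 1) with limma 3.58.1 in R 4.3.3 (4 group means, 8 residual degrees of freedom, eBayes with trend and robust), adjusted by Benjamini-Hochberg. Spread was pooled over groups whose mean variances were 0.0226 (C57 vehicle), 0.0376 (C57 ASIV), 0.0642 (BTBR vehicle) and 0.0500 (BTBR ASIV). The pipeline was tested on simulated data. The 22 alternatives covered pseudocount, filters, scaling, groups fitted, voom, a replicate block and each library left out. Named by rule were, per complex, up to 3 called members per direction with the largest difference and no overlap, all isoform family genes, and the 3 smallest p per direction in the other comparisons. Members and lists were chosen with earlier results of these data known.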

Additional observations from a re-analysis of the deposited data

Results flagged for a closer look

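The ASIV effect differed between BTBR and C57 for 23 members, by the interaction term of the limma model at an adjusted p under 0.05. The interaction (log2, BTBR effect minus C57 effect) was positive for Sdhd (0.54), Uqcr11 (1.00), Uqcrq (1.35), Cox5b (0.90), Cox7a2 (1.78), Cox8a (1.18) and Atp5g2 (2.79). It was negative for Sdhb (-0.71) and Sdhc (-0.75) of complex II, and for Uqcr10 (-0.50), Uqcrb (-0.93), Uqcrfs1 (-0.71) and Uqcrh (-0.54) of complex III. In complex IV it was negative for Cox4i1 (-0.54), Cox6a1 (-0.81) and Cox7a2l (-0.54). In complex V it was negative for Atp5a1 (-0.81), Atp5d (-0.62), Atp5e (-1.24), Atp5f1 (-0.93), Atp5g3 (-0.80), Atp5h (-1.09) and Atp5mpl (-0.87). Groups of 3 libraries were not searched for single libraries far from the others. With 1 library left out, the interaction lost its call at least once for Sdhd, Uqcr10, Uqcrb, Uqcrh, Cox4i1, Cox6a1, Cox7a2l and Atp5mpl. Cox6a1 lost it without C57 vehicle 2 (-0.73), and Uqcrh without C57 vehicle 1 (-0.54), C57 vehicle 2 (-0.49) or BTBR ASIV 1 (-0.51). Atp5mpl lost it without C57 vehicle 2 or 3, C57 ASIV 1 or 3, or BTBR ASIV 1 (-0.75 to -0.89). Uqcr10 lost it without 8 of the 12 libraries in turn, Uqcrb and Cox7a2l without 9 each and Cox4i1 without 10.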

How the results depend on the processing

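Of the called members, 27 of 33 (strains under vehicle), 23 of 28 (ASIV in BTBR) and 15 of 23 (interaction) were called in every alternative, and none of the called members changed sign. Under quantile normalization ASIV in BTBR raised 14 members in place of 9. Between the strains under ASIV the count of 1 higher became 0 with no filter and 0 with only the groups compared. Rescaled without genes of the mitochondrial genome, 19 were higher and 15 lower between the strains under vehicle.

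With 1 library left out, counts of members higher and lower were 18 to 21 and 9 to 14 (strains under vehicle), 8 to 11 and 15 to 20 (ASIV in BTBR), 0 to 1 and 0 to 1 (strains under ASIV), 0 and 0 (ASIV in C57), and 6 to 9 and 9 to 15 (interaction, 7 and 16 with all libraries). The interaction count of 16 lower was 9 without C57 vehicle 2 and 10 without BTBR ASIV 1.

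Cox4i2, not called, changed sign between the strains under vehicle with TPM (0.019), with quantile normalization (0.022), without C57 vehicle 3 (0.21) and without BTBR vehicle 2 (0.19; range with 1 library left out -0.17 to 0.21), and for ASIV in BTBR without BTBR vehicle 2 (-0.087; range -0.087 to 0.25). Cox6a2 did so between the strains under vehicle without BTBR vehicle 3 (0.049; range -0.58 to 0.049). Of the other members not called, Uqcrc2 did so without BTBR vehicle 2 (-0.021 between the strains under vehicle, 0.28 for ASIV in BTBR), and Atp5k without BTBR vehicle 3 (0.036) between the strains under vehicle. For ASIV in BTBR, Atp5k did so with quantile normalization (0.061), rescaled without genes of the mitochondrial genome (0.032), without BTBR vehicle 1 (0.14) and without BTBR ASIV 1 (0.036), and Atp5s without BTBR ASIV 3 (-0.011). The cause was not tested.

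Over all genes, 1864 higher and 2090 lower for ASIV in BTBR became 1111 and 1147 with only the groups compared. For the strains under ASIV, 178 higher and 166 lower ranged over 50 to 352 and 49 to 291 with 1 library left out, and for the interaction 939 and 1000 ranged over 594 to 990 and 552 to 1188.

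Replicate numbers are shared by the groups, and the labels tie them to no animal or batch. Deviations of same-numbered libraries correlated at -0.17 to 0.28, with 8 of 18 pairs over 0.1, beside -0.37 to 0.22 and 7 of 36 for different numbers, and 8 of 12 libraries correlated best with their own number. The main fit did not pair the libraries by number. Same-numbered pairs were over 0.1 more often than others, so some shared deviation is not excluded. With a replicate block the members higher and lower were 21 and 12, 9 and 18, 1 and 0, 0 and 0, and 7 and 15, in the order above.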
